A study of Schizosaccharomyces pombe with 24 samples.

Results

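The centromeres of the fission yeast Schizosaccharomyces pombe were described from the deposited annotation whose reporter feature lies in the mating-type region, the site that the titles call endogenous. Members were all features on chromosomes I, II and III that overlapped 1 of the 3 annotated centromeres by at least 1 base. Long terminal repeats were to be left out, but none lay there. The rule gave 498 of the 58359 annotation rows, of which 103 were on I, 168 on II and 227 on III. They held 52 repeats and cores, 2 assembly gaps and 141 genes, of which 27 were tRNA genes. The rows used coordinates alone, so no measured chromatin value entered their choice.

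The series comprised 24 ChIP-seq libraries of H3K9me2 or H3K9me3, the methylation marks of heterochromatin, with 1 library in each group and no per-library value analysed here. In 14 libraries the reporter, 10xteto-ade6+, replaced ura4 (ura4D::10xteto-ade6+), in WT, clr4D, swi6D, swi6Dmst2D, swi6Dset1D, set1Dmst2D and a swi6D mst2D set1D triple mutant. In the other 10 it replaced cenH (cenHD::10xteto-ade6+), in WT, swi6D, swi6Dmst2D, swi6Dset1D and swi6Dmst2Dset1D. All 24 libraries thus came from cells that carried a tet operator array and ade6+, the WT controls included. No replicate error applies to the coordinates below, and nothing below compares genotypes or antibodies.

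As background, a fission yeast centromere has a central core on which CENP-A nucleosomes and the kinetochore assemble. An inner repeat lies on each side of the core, and outer repeats of the dg and dh classes lie beyond it. The outer repeats are transcribed, their transcripts are processed by RNAi into small RNAs, and the methyltransferase Clr4 marks their nucleosomes at H3K9. The HP1 protein Swi6 binds that mark. Transfer RNA genes, read by RNA polymerase III, lie among the repeats, and some act as barriers to the spread of heterochromatin.

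Sequences of 8 tRNA genes are shown because these genes mark the inner and outer limits of the tRNA rows in the inner repeats, or a centromere edge. They were read by gene identifier from RefSeq's ASM294v3 assembly, and each is written 5′ to 3′ on the strand of the gene, introns included. Capitals mark GTTCGANNC, which spells the core of the B box, an internal promoter element of tRNA genes. The motif was searched on the gene's own strand. It was present in 21 of the 27 centromeric tRNA genes (77.8%) and in 110 of the 144 tRNA genes on the arms (76.4%). The alanine gene is in lower case throughout because it lacked these letters.
SPATRNAALA.04, outermost on I, minus strand, I:3765008-3765081: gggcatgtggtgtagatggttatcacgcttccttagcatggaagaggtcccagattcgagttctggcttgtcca
SPATRNAILE.03, innermost on I, plus strand, I:3768290-3768363: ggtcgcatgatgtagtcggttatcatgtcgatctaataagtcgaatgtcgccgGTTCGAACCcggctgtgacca
SPBTRNAILE.06, outermost in the inner repeat of II, plus strand, II:1618293-1618366: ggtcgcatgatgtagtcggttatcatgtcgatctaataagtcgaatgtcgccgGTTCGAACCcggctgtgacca
SPBTRNAVAL.06, innermost on II, minus strand, II:1619174-1619256: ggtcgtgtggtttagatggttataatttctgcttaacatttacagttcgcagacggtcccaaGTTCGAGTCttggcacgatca
SPBTRNAGLY.08, right edge of II, minus strand, II:1644675-1644745: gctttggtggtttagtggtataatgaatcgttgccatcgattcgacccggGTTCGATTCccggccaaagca
SPCTRNALYS.10, left edge of III, plus strand, III:1071093-1071175: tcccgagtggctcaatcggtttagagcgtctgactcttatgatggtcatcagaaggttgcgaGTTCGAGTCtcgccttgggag
SPCTRNAASP.06, outermost in the inner repeat of III, plus strand, III:1092437-1092507: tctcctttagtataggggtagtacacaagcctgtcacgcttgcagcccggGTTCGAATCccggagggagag
SPCTRNALEU.12, innermost in the inner repeat of III, minus strand, III:1096085-1096185: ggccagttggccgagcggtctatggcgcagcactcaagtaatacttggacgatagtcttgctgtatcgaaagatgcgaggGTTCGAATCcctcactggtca

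The innermost isoleucine gene of I and the outermost isoleucine gene of the inner repeat of II had the same 74 bases. The deposited annotation and ASM294v3 gave the same start, end and strand for all 31 centromeric genes of I and all 48 of II. On III all 62 genes had equal lengths in both, but the starts in ASM294v3 were 1807 bases higher. Sequences of III were therefore read by gene identifier, and coordinates of III below are those of the deposited annotation unless ASM294v3 is named.

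The annotated centromere was 35735 bases long on I (I:3753687-3789421), 42330 on II (II:1602418-1644747) and 66100 on III (III:1069097-1135196). The central cores did not follow that order. The core was 4107 bases on I, 6803 on II and 4867 on III, so the longest core was in the centromere of middle length. The inner repeats were 5636 bases on each side of I, 4136 on the left and 4323 on the right of II, and 5364 on each side of III. By annotated class, dg and dh together covered 41.8% of the centromere of I, 49.1% of II and 61.5% of III. Sequences of I and II that match dg or dh without carrying the class are not in these shares, so the contrast with III rests in part on the class names. All repeats and cores together covered 82.2%, 96.8% and 91.2%, each base being counted once.

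**Figure D1:**
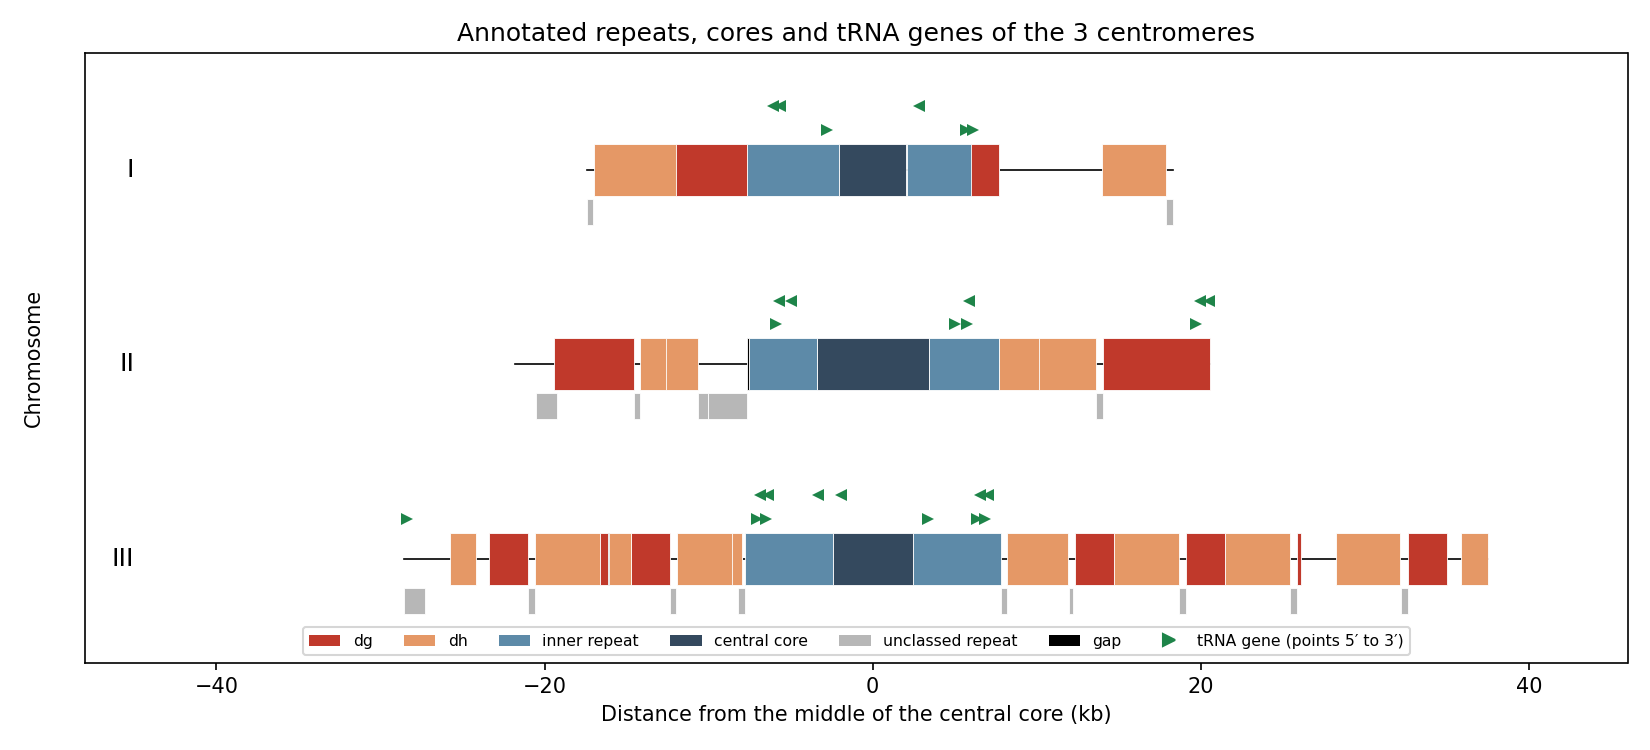
Annotated features of the 3 centromeres against distance from the middle of the central core, in kb. Blocks on the line are dg, dh, inner repeats, cores and gaps (a short block over a longer one hides the bases they share), grey blocks below it are unclassed repeats, and green arrowheads above it are tRNA genes that point in their reading direction. The tRNA genes form mirror-image rows beside each core, and the outer repeats of III reach farthest to the right.

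On I, the order from the left edge was a repeat of 391 bases without a class, dh (SPRPTCENA.3, 5044 bases), dg (SPRPTCENA.4, 4277), inner repeat, core, inner repeat, dg (SPRPTCENA.8, 1725), dh (SPRPTCENA.9, 3893) and a second repeat of 391 bases. The sides were thus symmetrical in order but not in annotated length. The right dg shared 1717 of its 1725 bases with the right inner repeat. An interval of 6249 bases without any annotated repeat followed it (I:3778840-3785088), with 6 lncRNA genes in it. The core and the left inner repeat adjoined, whereas 11 bases lay between the core and the right inner repeat.

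Sequence alignment placed the copies of the I repeats elsewhere than the class names did. The left dg, SPRPTCENA.4, matched I:3778833-3783109 in inverted orientation at 99.67% identity over its whole length. That position lay almost wholly inside the interval with no annotated repeat. The right dg, SPRPTCENA.8, matched I:3763435-3765158 at 99.19%, which is the outer part of the left inner repeat. On the sequence, therefore, the annotated right dg was the inverted copy of inner-repeat sequence, and the copy of the left dg carried no repeat annotation. The left dh matched I:3783104-3787488 at 97.90% over 85.3% of its length, again starting inside the interval without annotated repeats.

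On II, the left side held 4 unclassed repeats, 1 dg (SPRPTCENB.1, 4864 bases) and 2 dh repeats of 1540 and 2064 bases that overlap by 114 bases. A gap of 100 unknown bases lay directly left of the left inner repeat. The right side held 2 dh repeats of 2420 and 3590 bases, 1 unclassed repeat of 391 bases and the longest dg of the 3 centromeres (SPRPTCENB.17, 6518 bases). The first dg was annotated on the minus strand and the last on the plus strand. They matched as inverted copies at 99.79% over 98.7% of the shorter. The part of SPRPTCENB.17 outside its match, toward the right edge, held 3 tRNA genes.

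The class names of II differed between sides where the sequences matched. SPRPTB.9, on the left and without a class, matched II:1631312-1633731 as an inverted copy at 100% over all of its 2420 bases. That stretch lay mostly in SPRPTCENB.14, which is annotated as dh. SPRPTCENB.14 in turn matched II:1613530-1615949 at 99.92%, mostly in SPRPTB.9. The small unclassed repeat SPRPTCENB.5 (621 bases) matched the same dh at 99.68%.

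The sequence on either side of the gap of II overlapped. The last 433 bases before the gap and the first 433 after it were identical and in the same orientation. The right inner repeat, which has no gap beside it, exceeded the left by 187 bases at its outer end. Those 187 bases also occurred at II:1615950-1616136, left of the gap, with 100% identity. At the gap of III, only 4 bases at the flanks overlapped exactly. The longest match there in direct orientation had 1229 columns and 97.97% identity, and it ended at the gap on the left but began 663 bases beyond it on the right.

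On III, 7 dg and 10 dh repeats were annotated, against 2 and 2 on I and 2 and 4 on II. The left side held 3 dg and 5 dh repeats, and the right side 4 and 5. A unit of dh, a 391-base repeat and dg recurred. The dh of this unit was 3942 bases in 5 copies (SPRPTCENC.4, SPRPTCENC.9, SPRPTCENC.19, SPRPTCENC.22 and SPRPTCENC.25), and the dg was 2385 or 2386 bases in 5 copies (SPRPTCENC.2, SPRPTCENC.7, SPRPTCENC.18, SPRPTCENC.21 and SPRPTCENC.27). The remaining dg repeats were SPRPTCENC.5 (473 bases), which ends at the gap, and SPRPTCENC.24 (250 bases). The class names of III followed those of I only in part. The left dg of I, SPRPTCENA.4, matched III:1114852-1116724 of ASM294v3 at 99.10% over 44.1% of its length. That match lay inside SPNCRNA.7217, which overlaps annotated dh and an unclassed repeat but no annotated dg. The same held for matches inside SPNCRNA.7222 and SPNCRNA.7227. A longer match of another part of SPRPTCENA.4 was III:1112427-1114796 of ASM294v3, at 98.32% over 55.5% of its length. It overlapped SPNCRNA.7215, which overlaps annotated dg and no other annotated class.

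The spacing on the right side of III was regular. Successive repeats of the same class started 6760 bases apart in 8 of 11 pairs. Among the 9 pairs on the left no spacing was exactly 6760, and 1, between the first 2 dg repeats, was 6761. The assembly gap of III lies among the left repeats, between SPRPTCENC.5 and SPRPTCENC.6, so spacings that span it are those of the assembly. Starts are the lower coordinates on both sides, so in the inverted left copies they mark the other end of a repeat. The start of the truncated dg SPRPTCENC.24 fell on the 6760-base grid, and 2134 bases without any annotated repeat followed it.

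**Figure D2:**
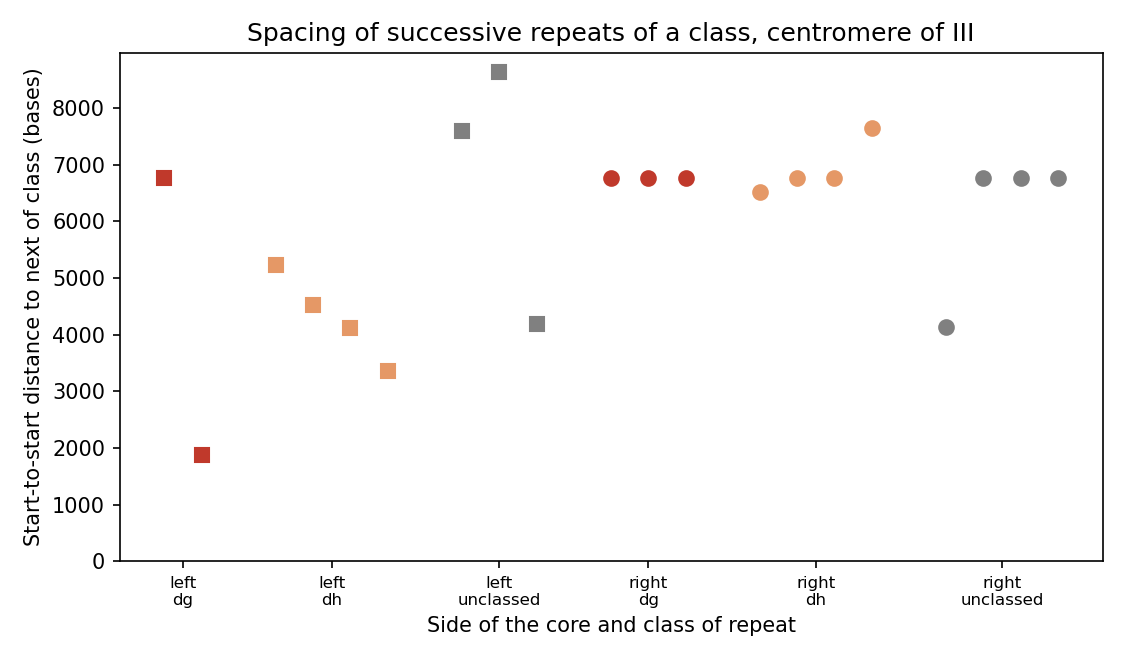
Distance in bases from the start of each repeat to the start of the next of its class in the centromere of III, for dg, dh and unclassed repeats left (squares) and right (circles) of the core. On the right 8 of 11 points lie at 6760 bases, and the points on the left, where the assembly gap lies, are scattered.

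Sequence of the other dg copies continued past the annotated end of the truncated dg. The lncRNA gene SPNCRNA.7215, which is 1552 bases long, had 6 copies on III of ASM294v3, of which 4 lay right of the core and 2 left of it. The copy at SPNCRNA.7225, the gene that lies beside the truncated dg, was 100% identical to it. All 4 right copies read on the plus strand and both left copies on the minus strand, with identities of 99.74% to 100%. Successive right copies were 6760 bases apart in 3 of 3 steps. SPNCRNA.7214 (1241 bases) and SPNCRNA.7218 (654 bases) had 6 copies each, and SPNCRNA.7217 (3562 bases) had 4. The lowest identity among all of these was 99.24%.

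The 391-base repeats carry no class, and each lay within 49 bases of a dh repeat. The 4 of I and II were identical in all 391 bases. Copies of this sequence were found 2 times on I, 2 times on II and 6 times on III of ASM294v3, each with 100% identity, and nowhere outside the centromeres. The deposited annotation listed 7 repeats of 391 bases and 1 of 301 bases on III. The 6 copies overlapped the same genes as 6 of these 8, including the one annotated at 301 bases (SPRPTCENC.17). SPRPTCENC.11 and SPRPTCENC.15, which border the left and the right inner repeat, overlapped genes at which no copy was found.

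The inner repeats of each chromosome were inverted copies of each other. Over all alignment columns, the left repeat and the reverse complement of the right were 99.73% identical on I and 95.42% on II. Without the 187 unpaired bases, identity on II was 99.73%. On III the stretches of 3749 bases between the aspartate and leucine tRNA genes of each side were 100% identical. Aligned on the same strand, the pairs reached only 56.48%, 56.01% and 54.91%. All 6 inner repeats were nevertheless annotated on the plus strand, as were 47 of the 52 repeats and cores, so the strand field does not give the orientation of a copy.

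Inverted symmetry extended past the inner repeats. The longest inverted match was 14294 columns on I (99.16% identity), 11723 on II (99.87%) and 13637 on III (99.44%). Such matches of at least 500 columns covered 86.4% of the centromere of I and 73.9% of II. On III they covered 90.6% of a stretch of 67158 bases of ASM294v3, from the lysine tRNA gene to the end of the last centromeric gene. That stretch leaves out the outermost 189 bases on the left and runs 1247 bases past the annotated right edge. Direct repeats of that length were found only on III among these 3 centromeres, where 8 matches covered 64% of that stretch and the longest was 20682 columns at 99.87%.

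The cores divided differently. The core of I shared a stretch of 3308 columns at 99.79% identity, in the same orientation, with the stretch of III between its leucine tRNA genes, which holds the core of that chromosome. The shared part was 80.5% of the core of I. The core of II had no match of at least 100 columns to either.

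These copies set how much of each class could be told apart by its sequence. Of all stretches of 100 bases, 10.3% occurred once in ASM294v3 in the centromere of I, 23.7% in II and 4.08% in the 67158-base stretch of III, against 97.3% of stretches taken at every 500th position of the arms. The core of II was the exception within the centromeres, at 100%. The core of I reached 24.9%, and the stretch between the leucine tRNA genes of III 33.2%. In dg the share was 12.7% on I and 14% on II, and in dh 10.1% and 2.34%. In the inner repeats it was 3.62% and 6.14%, and in the stretches of III between the aspartate and leucine tRNA genes 0%, since each side repeats the other. The sources used here give neither the read length nor the treatment of reads with several matches.

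**Figure D3:**
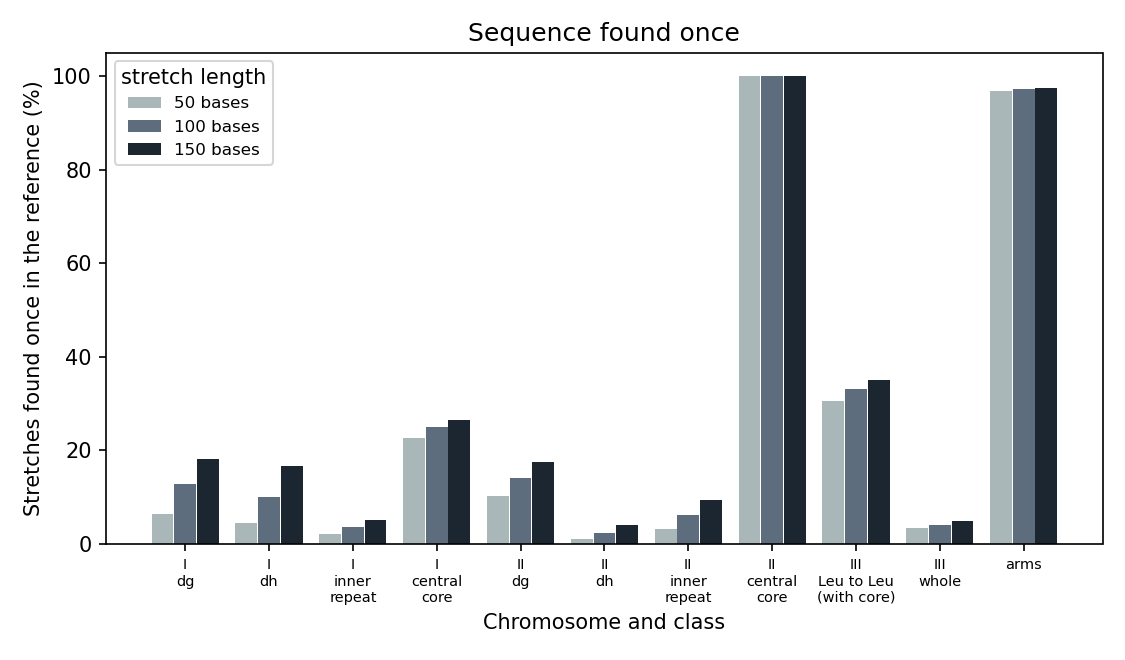
Percentage of stretches of 50, 100 or 150 bases that occur once in chromosomes I, II and III of ASM294v3 on either strand, by chromosome and class (for III, the whole is the stretch of 67158 bases). The core of II stands at 100%, close to the arms, and the dg, dh and inner-repeat bars of I and II stay under 20%.

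The 27 tRNA genes were 15.8% of the 171 on the 3 chromosomes. Their density was 18.7 per 100 kb in the centromeres and 1.16 on the arms, a ratio of 16.2. The arms here are all sequence outside the annotated edges. Pooled over the 10 kb outside all edges, the density was higher than in the centromeres, at 46.7 per 100 kb. This did not hold on I, whose flanks had 1 tRNA gene on the left and 0 on the right. The flanks of II had 12 and 6, and those of III 7 and 2. The centromeric tRNA genes numbered 6 on I, 9 on II and 12 on III. Of these, 22 lay in inner repeats and 1, the glutamate gene SPCTRNAGLU.10, in the core of III. The other 4 lay near an edge: SPBTRNATYR.03, SPBTRNALEU.07 and SPBTRNAGLY.08 at the right end of II, and SPCTRNALYS.10 at the left end of III.

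The 22 genes in inner repeats formed 11 mirror pairs, with 1 gene on each side of the core. In 11 of 11 pairs the genes carried the same amino acid, lay on opposite strands and had identical sequences. The 60 bases upstream were also identical in all 11. Outward from the core the order was isoleucine, glutamate and alanine on I. It was valine, alanine and isoleucine on II, and leucine, threonine, valine, arginine and aspartate on III. The isoleucine pair of I lay 714 bases left and 725 bases right of the core, and every pair of I differed by the same 11 bases that separate the core from the right inner repeat. Every pair of II was 1 base nearer on the right, and the pairs of III lay at equal distances. The spacing between neighbours was the same on both sides in 8 of 8 cases, from 66 bases between threonine and valine of III to 2930 between leucine and threonine.

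**Figure D4:**
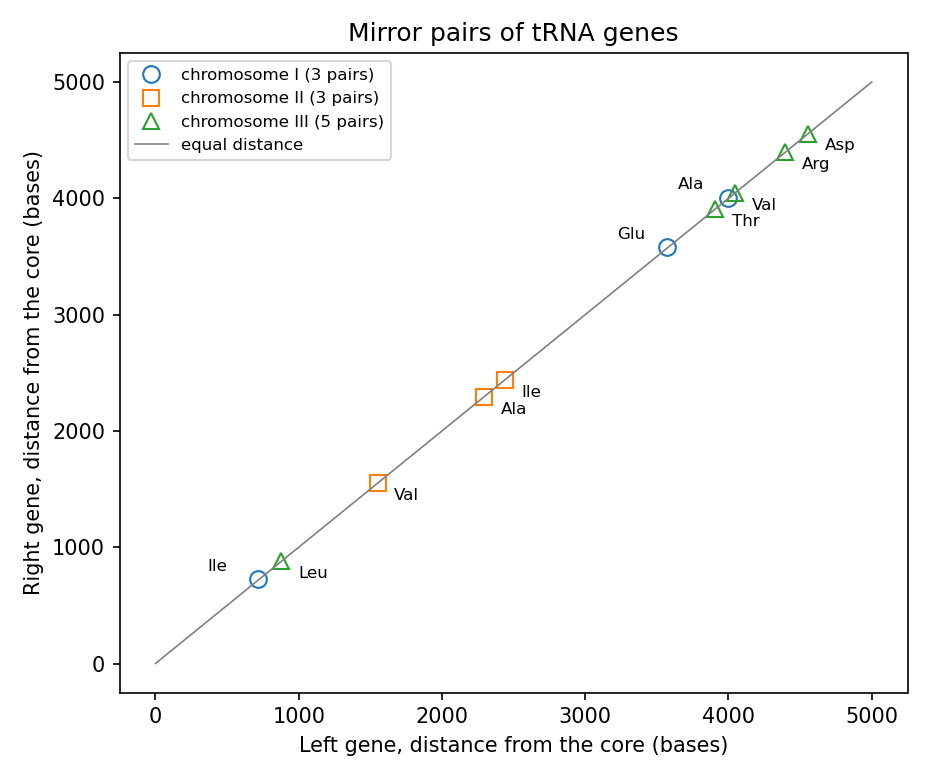
Distance in bases of the left against the right gene of each mirror pair of tRNA genes from the central core, for 3 pairs on I, 3 on II and 5 on III. All 11 points lie on the line of equal distance to within 11 bases.

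Within the inner repeats, 8 tRNA genes read toward the core and 14 away from it. The gene nearest to the core read toward it on I (isoleucine, 714 bases) but away from it on II (valine, 1550 bases) and III (leucine, 878 bases). The outermost gene read away from the core on I (alanine) and toward it on II (isoleucine) and III (aspartate). The neighbouring isoleucine and alanine genes of II lay 73 bases apart. The median gap between neighbouring centromeric tRNA genes, across all 24 gaps, was 575.5 bases.

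The centromeric tRNA genes carried 11 amino acids and had 11 distinct sequences. Each of the 27 had an identical gene on the arms, and 24 had an identical gene elsewhere in the centromeres. For the centromeric tyrosine, leucine and isoleucine genes, all identical arm genes lay within 10 kb of the centromere of II. These were SPBTRNATYR.02, SPBTRNALEU.06, SPBTRNAILE.05 and SPBTRNAILE.08. Of the 144 arm genes, 104 had an identical gene on the arms. Genes for the same amino acid on different chromosomes did not differ either. The alanine genes of I and II, the isoleucine genes of I and II, the valine genes of II and III and the leucine genes of II and III were each identical. So were the glutamate genes of I and the glutamate gene in the core of III. Isoleucine had the largest centromeric share of the amino acids, with 4 of its 9 genes, followed by alanine and valine with 4 of 12 each. No centromeric gene carried serine, proline, methionine, asparagine, glutamine, phenylalanine, histidine, cysteine or tryptophan. Introns were annotated in 9 of 27 centromeric genes (33.3%) and in 24.3% of the arm genes.

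The 3 tRNA genes at the right edge of II belonged to a longer row that the edge cuts. The row ran tyrosine, leucine, glycine, lysine, isoleucine, alanine, valine and glutamate, and its last 5 genes lay outside the centromere. A row of the same 8 genes, in the same order and on the same strands, lay left of the centromere of II, from SPBTRNATYR.02 to SPBTRNAGLU.06. All 8 genes were identical in sequence and all 7 start-to-start distances were equal. The rows spanned 3052 bases each and differed at 1 position (99.97% identity). Unlike the inner repeats, these rows were in direct orientation.

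Transfer RNA genes also flanked the centromeres. Within 10 kb outside the edges lay 28 more, with 1 on the left and 0 on the right of I, 12 and 6 on II, and 7 and 2 on III. On II the aspartate gene SPBTRNAASP.05 ended at the base before the left edge. The nearest protein-coding gene lay 1957 bases from the left edge of I (per1) and 1502 from the right (emc5). On II these were rpb1, which encodes the largest subunit of RNA polymerase II, at 5673 bases and yox1 at 3484. On III they were chk1, the DNA damage checkpoint kinase, at 6460 bases and ppc1 at 5612.

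Protein-coding genes were absent from the centromeres, with 0 mRNA features among the member rows, against 41.1 genes per 100 kb on the arms. The 150 member rows typed as coding sequence had no mRNA parent and belonged to the non-coding genes. Besides the tRNA genes there were 110 lncRNA genes and 4 sncRNA genes. The lncRNA genes numbered 25 on I, 37 on II and 48 on III, a density of 76.3 per 100 kb against 56.7 on the arms. Of the 4 sncRNA genes, SPNCRNA.363 lay in dh of II and SPNCRNA.369 across the left border of the core of II. SPNCRNA.483 and SPNCRNA.484 lay in the left and the right inner repeat of III.

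The lncRNA genes overlapped each other on opposite strands. Of 110, 93 (84.5%) overlapped an lncRNA or sncRNA gene on the other strand by at least 1 base, against 1392 of 7047 (19.8%) on the arms. Overlaps with protein-coding genes, which the centromeres lack, were not counted. The centromeric share was 76% on I, 78.4% on II and 93.8% on III. Their median length was 1035 bases, and 615 on the arms. The longest, SPNCRNA.7226 with 6078 bases, spanned most of a repeat unit right of the core of III. SPNCRNA.7192, with 5975 bases on the other strand, lay left of it.

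The annotation of non-coding genes differed between the classes of repeat. In dg, 90.8% of the bases lay under an lncRNA or sncRNA gene on either strand and 48.5% under genes on both strands. In dh these values were 87.7% and 65.3%. They fell to 27.7% and 8.47% in the inner repeats and to 8.56% and 0% in the cores. The arms had 47.6% and 2.68%. The 1717 bases that the right dg and the right inner repeat of I share count in both classes. The annotated dh repeats of III had the most bases under both strands of the dg and dh classes, at 79.8%, against 34.7% on I and 51% on II. Part of the annotated dh of III matched dg of I, so these contrasts rest in part on the class names.

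**Figure D5:**
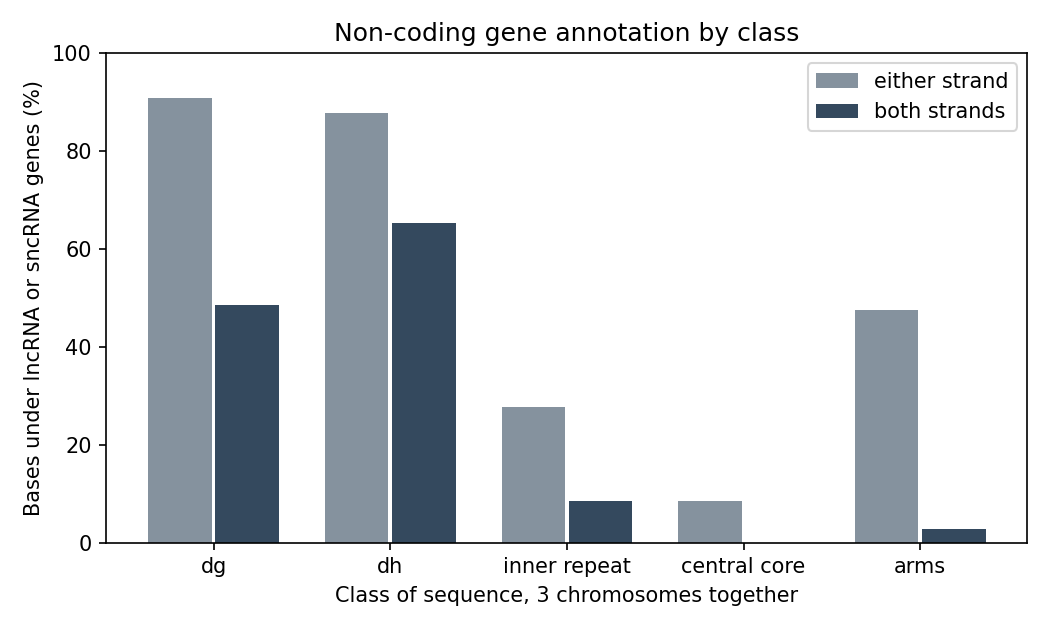
Percentage of bases under annotated lncRNA or sncRNA genes on either strand and on both strands, by class, for the 3 centromeres together and the arms. The dg and dh bars lie above those of the arms and the cores have no base under both strands.

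Each core held 1 lncRNA gene wholly inside it, SPNCRNA.233 on I, SPNCRNA.370 on II and SPNCRNA.7206 on III, and none of these had an antisense partner. The inner repeats of III had the lowest share of the inner repeats under either strand, at 9.02%, against 30.8% on I and 47.2% on II. The gene annotation of the inner repeats of I was not symmetrical. There, SPNCRNA.333 and SPNCRNA.396 lay in the right inner repeat alone, where the left inner repeat had no gene wholly inside it other than tRNA genes. On III, SPNCRNA.483 and SPNCRNA.484 lay in opposite inner repeats, as did parts of SPNCRNA.482 and SPNCRNA.485. These genes were all annotated on the plus strand, although the repeats are inverted copies, so they do not form mirror pairs. SPNCRNA.7207 lay in the right inner repeat of III alone. Genes within such near-identical copies are uncertain, since a transcript of one copy could be counted for another.

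The edges cut 5 genes. IRC1-L and IRC1-R, named for the inverted repeats at the borders of the centromere of I, reached 6 and 22 bases into it, each with 527 bases outside. SPNCRNA.3688 crossed the right edge of I, and SPNCRNA.7230 and SPNCRNA.7231 the right edge of III.

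Base composition separated the classes less than gene content did. GC content on I was 32.5% in dg, 33.2% in dh, 29% in the inner repeats and 28.6% in the core, against 36.1% for the chromosome. On II it was 33.1%, 33.5%, 28.8% and 28.6%, against 35.9%. The order of inner repeats and core turned when the bases of tRNA genes were left out. The inner repeats then had 27.9% on I and 27.6% on II, below the 28.6% of each core. The stretch of III between the leucine tRNA genes had 27.9%, against 36.2%. The centromeric tRNA genes had 52.6% and those of the arms 54%.

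The deposited annotation with the reporter on III, the ectopic site, held the centromeric tRNA genes but not most centromeric lncRNA genes. All 27 tRNA genes and 4 of 4 sncRNA genes were found in it by identifier, and 24 of 110 lncRNA genes. It has 40352 rows in all, against 58359 in the annotation used here. The share of arm lncRNA genes found in it is not given here, so the lncRNA count says nothing particular to the centromeres. Of the 52 repeats and cores, 51 had an unnamed repeat feature at the position that the gene shift gives. The genes of III lay 3041 bases higher in that annotation, so coordinates of III are not interchangeable between the 2 files.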

How the data were processed

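Per the labels' protocols, log-phase cells grown in YEA were fixed with formaldehyde and ChIP-seq libraries prepared with a NEBNext kit. Trimmomatic and BWA are named, without versions, in the submitters' processing notes. The sources used here do not say how aligned reads were counted. The 2 deposited annotations hold feature coordinates in bases and no count or signal per library, so depth and its precision are unknown and no test was made. Geneious 7.1.5 wrote the annotation with the reporter on III, per the file headers. Which annotation belongs to which strain was read from the reporter's position in it.

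Members were features overlapping an annotated centromere by at least 1 base. Distances are bases between features. The members, lists and comparisons were chosen with earlier results of these data known. The named items were all repeats, cores and genes of the centromeres and the nearest genes outside. Genes were matched by identifier to ASM294v3. Elements of I and II were read by coordinate, since all their centromeric genes agree in position. Identities are from edlib 1.3.9.post1 (global alignment) or blastn 2.17.0 (largest expect value 1e-20). Minimum columns were 200 for repeats, 300 for 391-base copies, 500 for self matches and 100 for cores and gaps. Gene copies covered at least 90% of the gene. Python 3.11.15 and matplotlib 3.10.9 were used.

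On simulated data, interval arithmetic was right in 200 of 200 runs. Identities were within 0.05 percentage points in 50 of 50, and planted inverted copies were found in 50 of 50.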

Additional observations from a re-analysis of the deposited data

How the results depend on the processing

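Of 39 alternatives, 17 gave the same value within the limit set for each result, 22 moved it and 0 changed its sign. Leaving out tRNA genes turned the order of GC content between inner repeats and core, to 27.9% against 28.6% on I and 27.6% against 28.6% on II. Widening each centromere by 10 kb raised the tRNA genes from 27 to 55 and the protein-coding genes from 0 to 20. The added flanks held 46.7 tRNA genes per 100 kb, against 18.7 in the centromeres. Summing lengths of overlapping repeats gave coverage of 87% on I, 97.6% on II and 92.6% on III, since shared bases count again. The median tRNA gene gap, taken start to start, was 663 bases, since it then includes the gene. Identity of the inner repeats without gap columns was 99.84% on I and 99.78% on II. On the same strand it was 56.48%, 56.01% and 54.91% on I, II and III, since the copies are inverted. Without the unpaired outer end of II, an alternative added after seeing the data, it was 99.73%. The share of stretches found once was also added after seeing the data. With 50 bases it was 6.34%, 21.3% and 3.38% on I, II and III, and with 150 bases 14.2%, 26.3% and 4.78%, since longer stretches span more differences. Merging adjoining repeats left 11 dg and 13 dh, and a minimum of 1000 bases left 9 and 15. No paired analysis was possible because each group holds 1 library and no result comes from a test. ASM294v3 has a gap inside the centromere of II and of III, so the copy numbers are those of that assembly.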
